A study of Mus musculus with 8 samples.

Results

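The 10 genes described here belong to macrophages and their upkeep: the growth factor genes Csf1 and Il34, their shared receptor gene Csf1r, and the macrophage genes Adgre1, Lyz2, C1qa, C1qb, C1qc, Tyrobp and Fcer1g. They are 10 of the 32285 genes counted in each library and were found by symbol; all 10 were present. They were picked because earlier results on these libraries showed UMIs (unique molecular identifiers, a tag for each captured RNA molecule) of them, so their levels are given as a description and without a test. The series holds 8 single-cell 3′ RNA libraries of the colon of male C57BL/6 mice aged 6 to 12 weeks, 2 in each group. Assembloids are colon organoids joined with cultured primary stromal cells of the colon in Matrigel drops that are shaken, in medium without Wnt surrogate, CHIR-99021, R-spondin 1 and noggin, and they gave an EpCAM-negative stromal group and an epithelial group. Organoid epithelium was grown alone in the full medium that holds these factors, and tissue epithelium came from crypts freshly isolated from colon. The stromal cells of an assembloid were grown in culture beforehand.

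Limits of at least 500 genes and no more than 10% mitochondrial UMIs per cell left a library with between 4310 and 29410 cells with median depths of 3444 to 35219 UMIs. The tissue libraries kept the smallest shares of their barcodes, 38.7% and 25.4%. Pairs of libraries shared 6 to 76 barcodes, at most 1.07% of the smaller library. Levels are CPM, the UMIs of a gene in the summed cells scaled to one common total, with the exact 95% Poisson interval, and shares of cells carry the exact 95% binomial interval. Such intervals cover counting error only, and where 2 libraries of a group are tested the p-values measure the spread between these libraries, which the study calls biological replicates; the stromal cultures came from 2 mice, and the labels do not say which mice or cultures gave the epithelial libraries. The stromal files name Cell Ranger 6.0.1 and the epithelial files 7.1.0, so levels set side by side across these groups also differ in software.

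Macrophages of the gut wall depend on CSF1R, a receptor tyrosine kinase. CSF1 and IL-34 are both ligands of this receptor and share little sequence. CSF1 is known as a product of fibroblasts and other mesenchymal cells, and IL-34 as a product of keratinocytes and neurons. ADGRE1 is the F4/80 antigen, LYZ2 is the lysozyme of myeloid cells, C1QA, C1QB and C1QC are the chains of complement C1q, and TYROBP (DAP12) and FCER1G (the Fc receptor gamma chain) are adaptors that carry signals of activating receptors.

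On GRCm38 (GENCODE M21), C1qb, C1qc and C1qa lie side by side on the minus strand, at chr4:136880129-136886187, chr4:136889804-136893065 and chr4:136895917-136898803, within 18675 bases and with gaps of 3616 and 2851 bases. Csf1 lies at chr3:107741048-107760469 and Il34 at chr8:110741829-110805924, both on the minus strand. Lyz2 lies at chr10:117277331-117282321 on the minus strand, Fcer1g at chr1:171229572-171234365 on the minus strand, Tyrobp at chr7:30413760-30417585 on the plus strand and Adgre1 at chr17:57358691-57483527 on the plus strand. RefSeq promoters (GRCm38.p6) were found for 5 of the 10 genes. The stretches upstream of their starts are shown 5′ to 3′ on the gene's strand because 4 of these genes shared their cells in the data below and Csf1 did not. Capitals mark GAGGAA or its reverse complement TTCCTC, the core recognised by the myeloid factor PU.1.
Csf1, chr3:107760470-107760719: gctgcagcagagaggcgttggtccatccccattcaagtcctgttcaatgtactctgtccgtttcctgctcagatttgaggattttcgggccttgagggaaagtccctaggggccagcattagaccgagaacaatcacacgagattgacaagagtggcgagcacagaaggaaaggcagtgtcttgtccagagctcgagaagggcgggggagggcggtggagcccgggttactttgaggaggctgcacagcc
Lyz2, chr10:117282322-117282522: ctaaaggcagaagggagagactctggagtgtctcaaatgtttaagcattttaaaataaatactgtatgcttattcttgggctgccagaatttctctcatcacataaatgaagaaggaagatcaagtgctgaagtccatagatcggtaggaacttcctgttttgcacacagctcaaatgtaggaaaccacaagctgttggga
C1qb, chr4:136886201-136886450: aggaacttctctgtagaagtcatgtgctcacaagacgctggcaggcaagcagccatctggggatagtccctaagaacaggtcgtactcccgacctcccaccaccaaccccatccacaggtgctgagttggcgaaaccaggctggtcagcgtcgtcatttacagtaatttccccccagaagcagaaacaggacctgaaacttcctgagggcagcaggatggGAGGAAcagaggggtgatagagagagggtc
C1qc, chr4:136893066-136893164: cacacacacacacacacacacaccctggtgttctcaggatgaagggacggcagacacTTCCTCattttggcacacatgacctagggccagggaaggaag
Fcer1g, chr1:171234366-171234599: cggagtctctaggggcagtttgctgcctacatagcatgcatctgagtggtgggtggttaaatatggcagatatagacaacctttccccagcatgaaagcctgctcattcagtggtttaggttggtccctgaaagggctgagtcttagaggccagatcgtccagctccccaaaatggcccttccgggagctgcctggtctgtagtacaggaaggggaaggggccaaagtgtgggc
The letters occurred once upstream of C1qb and once, on the other strand, upstream of C1qc, and not in the other 3 windows. Among 32851 promoters they occurred in 9.91% of windows of 99 bases, the length shown for C1qc, and in 23.3% of windows of 250 bases, the length shown for C1qb, so a match is common.

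Across whole libraries the genes fell into 3 patterns. Csf1 was highest in assembloid stroma, at 58.6 and 95.8 CPM (9471 and 13392 UMIs), against 4.25 and 6.35 in assembloid epithelium, 1.73 and 2.46 in organoids and 0.765 and 0.406 in tissue. Il34 was highest in assembloid epithelium, at 85.7 and 63.7 CPM (15110 and 7564 UMIs), against 4.67 and 6.58 in assembloid stroma, 2.04 and 3.96 in organoids and 11.0 and 7.11 in tissue. Both libraries of each ligand's leading group lay above all other libraries. How many of all genes separate the groups in this way was not counted. The receptor Csf1r stood at 4.49 and 7.32 CPM in assembloid epithelium, and no other library was above 0.352. The 7 macrophage genes followed Csf1r: Lyz2 reached 106 and 256 CPM in assembloid epithelium, 11.7 and 15.6 in assembloid stroma and 10.8 and 1.00 in tissue. C1qa had 32.4 and 72.9 CPM in assembloid epithelium and 2.82 and 3.92 in assembloid stroma. In tissue C1qa had 2 and 15 UMIs, and C1qa, C1qb and C1qc were at 0 in both organoid libraries, which allows up to 0.0160 and 0.0323 CPM. The libraries labelled as epithelium of assembloids thus held more UMIs of macrophage genes than the EpCAM-negative ones. How the epithelial fraction was separated is not given in the sources used here, so the cells of an assembloid that each fraction could hold are not known.

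**Figure D1:**
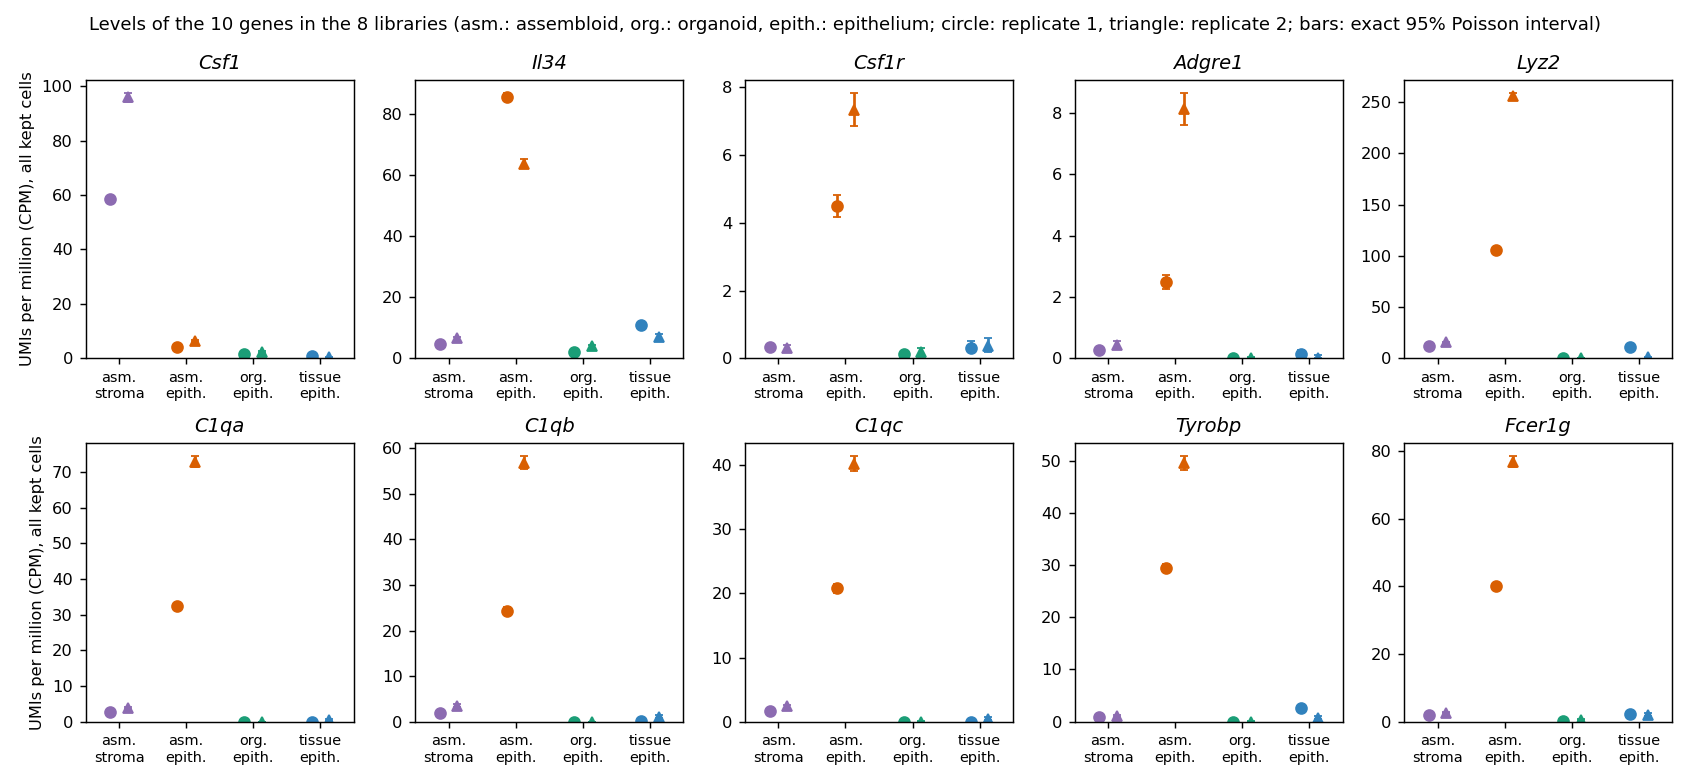
CPM (scaled UMIs, linear axes that differ between panels) of the 10 genes over all kept cells of each library; circles are replicate 1, triangles replicate 2, and bars the exact 95% Poisson interval. Csf1 leads in assembloid stroma (58.6 and 95.8 CPM), Il34 and the 8 receptor and macrophage genes in assembloid epithelium.

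Cells were then gated by markers that include none of the 10 genes. A cell was called macrophage-gated with at least 5 of 12 markers, among them Ptprc, Cd68, Ctss, Cybb and Spi1, and an epithelial UMI share below 1 part in 3 of the median of its library's epithelial cells. This gate found 142 cells (0.483%, interval 0.407 to 0.569) and 187 cells (2.42%, 2.09 to 2.79) in assembloid epithelium. Assembloid stroma held 4 and 4 such cells (0.0444% and 0.0442%), tissue held 4 and 2 (0.0853% and 0.0464%) and organoids held none in 4872 and 8034 cells, which allows up to 0.0616% and 0.0373%. Both assembloid epithelium libraries lay above the intervals of all other libraries, while the intervals of assembloid stroma and tissue overlapped and the organoid limits reached into them. The share differed by more between the assembloid epithelial libraries than within any other group. In that group's first library the gate cut through a continuum, with 90 cells at 4 markers and 74 at 5, while in the second 11 and 12 cells lay there and 60 carried all 12.

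A further 168 and 45 cells of assembloid epithelium passed the macrophage markers with a higher epithelial share and were kept apart as "macrophage and epithelial". Their median epithelial marker share was 0.978% and 0.957% of UMIs, against 0.142% and 0.132% in the macrophage-gated cells and 1.30% and 1.48% in epithelial-gated cells. Their median depth was 8024 and 26640 UMIs, against 7350 and 12665. Whether they are doublets was not tested, and no doublet caller was run.

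The macrophage-gated cells of assembloid epithelium carried the markers of the gate broadly: Ctss was seen in 96.5% and 94.1% of them, Cybb in 93.7% and 92.0%, Ptprc in 80.3% and 90.4% and Spi1 in 59.9% and 86.6%. Markers of other leukocytes were rare. Of 6 T cell markers 0 and 2 were seen, of 5 B cell markers 1 and 1, of 5 mast cell markers 0 and 1, and of 6 dendritic cell markers 1 and 4, none in more than 3.21% of cells. Of 5 neutrophil markers 3 and 2 were seen, the most frequent in 10.6% and 3.74% of cells. Epithelial markers summed to 1420 and 1600 CPM in these cells and fibroblast markers to 59.6 and 244, and their part in the levels below was not tested.

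Csf1r, the receptor of both ligands, stood at 294 CPM (interval 263 to 329) and 254 CPM (235 to 274) in the macrophage-gated cells of assembloid epithelium, from 321 and 664 UMIs. A UMI was present in 72.5% and 82.9% of these cells, and in 39.1% and 37.1% when each cell was thinned to 2000 UMIs. The 4 cells of each stromal library gave 211 and 277 CPM from 17 and 26 UMIs, with a UMI in every cell. The tissue cells gave 61.4 and 242 CPM from 4 UMIs each. The tissue intervals were wide, 16.7 to 157 and 66.0 to 620. In epithelial-gated cells of the same assembloid libraries Csf1r was at 1.40 and 0.552 CPM, with a UMI in 0.835% and 0.834% of cells.

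Adgre1, the F4/80 antigen, had 162 and 290 CPM in macrophage-gated cells of assembloid epithelium and 434 and 640 in those of assembloid stroma. Its shares of cells, 57.04% and 72.2%, were the lowest of the 8 genes of these cells. Lyz2 had 7050 and 9148 CPM in assembloid epithelium and 16010 and 15370 in assembloid stroma, and the 4 and 2 tissue cells gave 7564 and 2119. Lyz2 was seen in 98.6% and 100% of the macrophage-gated cells of assembloid epithelium, and in 14.5% and 18.6% of epithelial-gated cells there at a level of 39.7 and 16.1 CPM.

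The 3 chains of C1q moved together. C1qa had 2129 and 2666 CPM in macrophage-gated cells of assembloid epithelium, C1qb 1533 and 2042, and C1qc 1355 and 1460, and each was seen in at least 95.1% of these cells. The stromal macrophage-gated cells lay higher for each chain, at 5245 and 5534 CPM for C1qa, 3720 and 5033 for C1qb and 3162 and 3316 for C1qc. Markers of other leukocytes were present in the tissue cells of the gate: the 4 cells of the first tissue library carried 5 of 6 T cell markers, summed to 552 CPM, and 3 of 6 dendritic cell markers at 644 CPM, and the 2 cells of the second carried 1 dendritic cell marker at 242 CPM. These tissue values are therefore given side by side with the cultures and not compared. In tissue the 4 cells of the first library held 0 UMIs of C1qa, 2 of C1qb and 0 of C1qc beside 493 of Lyz2. In the second tissue library the 15, 35 and 14 UMIs of the chains each lay in 1 of 2 cells. The 4 gated cells of the first stromal library also carried 9 of 10 fibroblast markers at 4820 CPM, beside 5210 CPM of the macrophage markers, and those of the second 736 beside 7600. The part of fibroblast RNA in these levels was not tested. The 4 stromal cells of each library held 92.8% and 94.7% of all C1qa UMIs of their library and 68.1% and 66.1% of those of Lyz2. Fibroblast-gated cells held 29.8% and 33.6% of the Lyz2 UMIs in the stroma, at 4.32 and 5.50 CPM.

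The adaptor gene Tyrobp had 1654 and 1770 CPM in macrophage-gated cells of assembloid epithelium, 1686 and 1674 in assembloid stroma and 1550 and 1211 in tissue. Fcer1g had 2324 and 2763 CPM in assembloid epithelium, 2728 and 2932 in assembloid stroma and 1059 and 1876 in tissue. For Tyrobp the intervals of the stromal libraries overlapped those of both assembloid epithelium libraries. Fcer1g was the only one of the 7 macrophage genes with more than 3 UMIs in either organoid library, with 46 and 47 UMIs (0.245 and 0.508 CPM in epithelial-gated cells).

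Csf1 was a gene of the mesenchyme in these libraries. In fibroblast-gated cells it stood at 67.9 CPM (interval 66.5 to 69.4) and 99.6 CPM (97.9 to 101) in assembloid stroma, and at 58.4 (51.0 to 66.6) and 57.3 (51.1 to 64.1) in the 529 and 439 fibroblast-gated cells found in assembloid epithelium. A UMI was present in 54.2% and 66.8% of the stromal fibroblasts, and in 12.2% and 17.1% after thinning. These cells held 93.7% and 99.0% of the stromal Csf1 UMIs, with 80.8% and 95.2% of all UMIs. The 14 and 14 cells gated as smooth muscle and myofibroblast gave 75.6 and 91.4 CPM, with intervals that cover the fibroblast value of their library. Glia-gated cells lay lower, at 11.98 and 37.2 CPM.

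Epithelial-gated cells held little Csf1: assembloids had 2.39 and 3.10 CPM, organoids 1.73 and 2.45, and tissue 0.767 and 0.406. The fitted log2 difference of assembloids over tissue was 2.60 ± 0.39 (SE) and that of organoids over tissue 2.03 ± 0.39, while organoids and assembloids overlapped (-0.57 ± 0.35). In the assembloid libraries this amounted to 4.08% and 5.42% of the level in fibroblast-gated cells. For Serping1, a fibroblast gene in these libraries at 1050 and 1270 CPM, the same percentage was 1.71 and 0.476, and the 10 fibroblast markers summed to 199 and 40.3 CPM in these epithelial-gated cells against 0.634 to 6.49 in the organoid and tissue libraries. The part of fibroblast RNA in the epithelial Csf1 values was not tested.

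**Figure D2:**
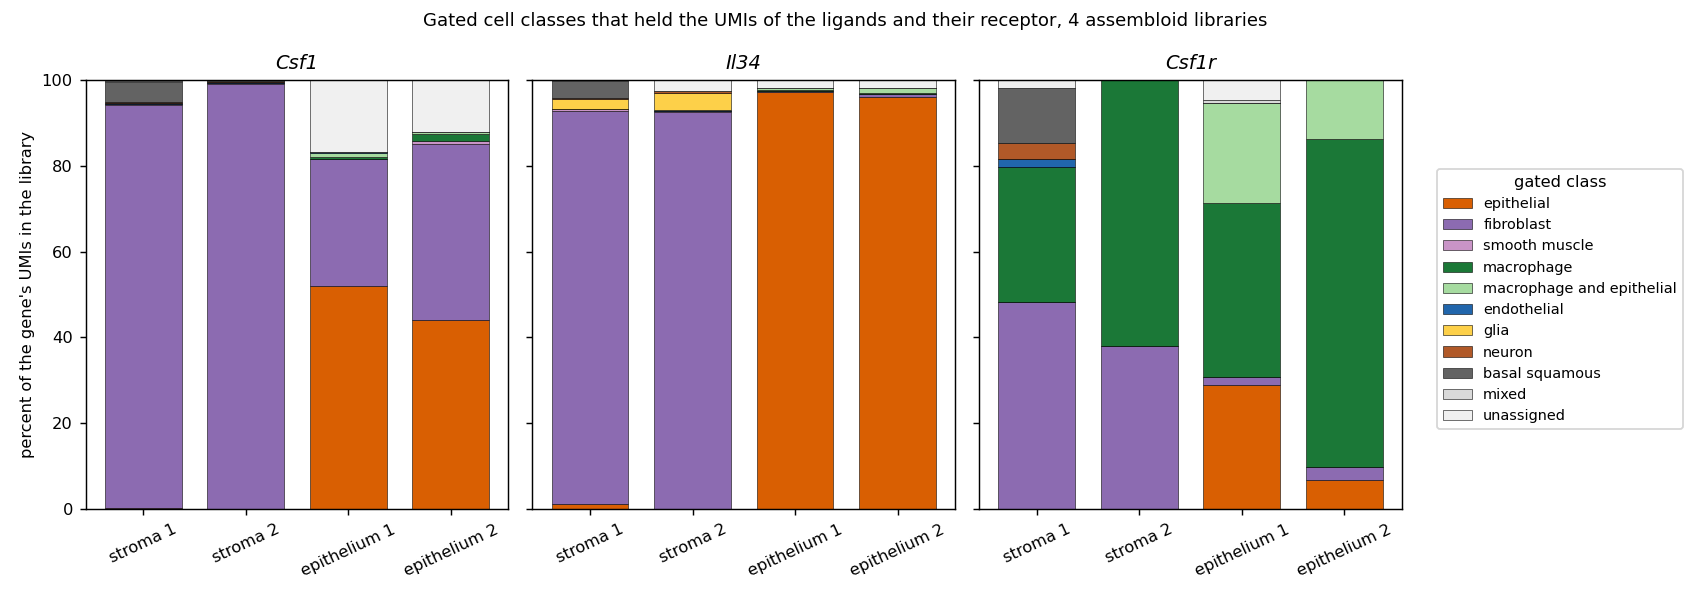
Share of the UMIs of Csf1, Il34 and Csf1r (percent of the gene's UMIs in the library) held by each gated class in the 2 assembloid stroma and 2 assembloid epithelium libraries. Fibroblast-gated cells hold nearly all stromal Csf1. Epithelial-gated cells hold 97.1% and 96.1% of Il34 in the epithelial libraries, beside 92.5% and 90.1% of all UMIs. Macrophage-gated cells hold 40.6% and 76.4% of Csf1r there.

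Il34 was mostly counted in epithelial-gated cells in the assembloid epithelium libraries. These cells held 97.1% and 96.1% of its UMIs there, with 92.5% and 90.1% of all UMIs. Their level was 90.0 CPM (interval 88.5 to 91.4) and 67.9 CPM (66.4 to 69.5). Epithelial-gated cells had 11.1 (10.1 to 12.04) and 7.12 (6.29 to 8.04) in tissue and 2.04 (1.84 to 2.26) and 3.97 (3.57 to 4.39) in organoids. These groups did not overlap, and the share of all genes that separate them in this way was not counted. The 108 and 36 epithelial-gated cells of assembloid stroma had 3.39 (1.55 to 6.44) and 0.851 CPM (0.0215 to 4.74). Fibroblast-gated cells of the stroma had 5.30 and 6.39 CPM. The fitted log2 difference was 3.53 ± 0.34 (SE) for assembloids over tissue, -1.42 ± 0.32 for organoids over tissue and -4.95 ± 0.36 for organoids over assembloids. The tissue values moved with the limit on mitochondrial UMIs: they were 8.28 and 4.23 CPM at a limit of 5% and 13.7 and 10.5 CPM with no limit, an alternative chosen after seeing the data, below both assembloid libraries each time.

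Few assembloid cells held a large part of the Il34, and the rest was spread over many cells. A UMI was present in 13.5% and 11.8% of the epithelial-gated assembloid cells, 5.53% and 3.29% of the organoid cells and 7.09% and 4.70% of the tissue cells. After thinning to 2000 UMIs, which left 20439 and 6064 assembloid, 4761 and 4613 organoid and 2436 and 2767 tissue cells, these shares were 8.38% and 5.44%, 0.294% and 0.867%, and 2.18% and 1.27%. Fibroblast-gated cells of the assembloid epithelium, measured in the same libraries, showed it in 2.29% and 1.37% of thinned cells. The highest assembloid cell held 258 and 251 Il34 UMIs, the highest organoid cell 7 and 14 and the highest tissue cell 9 and 7. These are deposited UMI counts, and whether the reads behind the highest counts map to Il34 alone was not tested. Cells with at least 10 UMIs were 282 (1.06%) and 180 (2.63%) of the epithelial-gated assembloid cells and held 54.9% and 80.6% of the Il34 there. Without them the level was 41.6 and 13.6 CPM, above the 11.1 and 7.12 CPM of tissue at the same limits on cells. With no mitochondrial limit tissue had 13.7 and 10.5 CPM. There the assembloid level without the cells of at least 10 UMIs was not computed. Organoids had 0 and 2 such cells and tissue 0 and 0. These high cells had median depths of 11960 and 14723 UMIs, against 3368 and 13422 in cells without Il34, and mitochondrial shares of 2.83% and 4.4% against 2.72% and 4.28%. Csf1 was spread differently over fibroblasts, where cells with at least 10 UMIs held 6.82% and 4.53% of the Csf1 of the stroma.

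**Figure D3:**
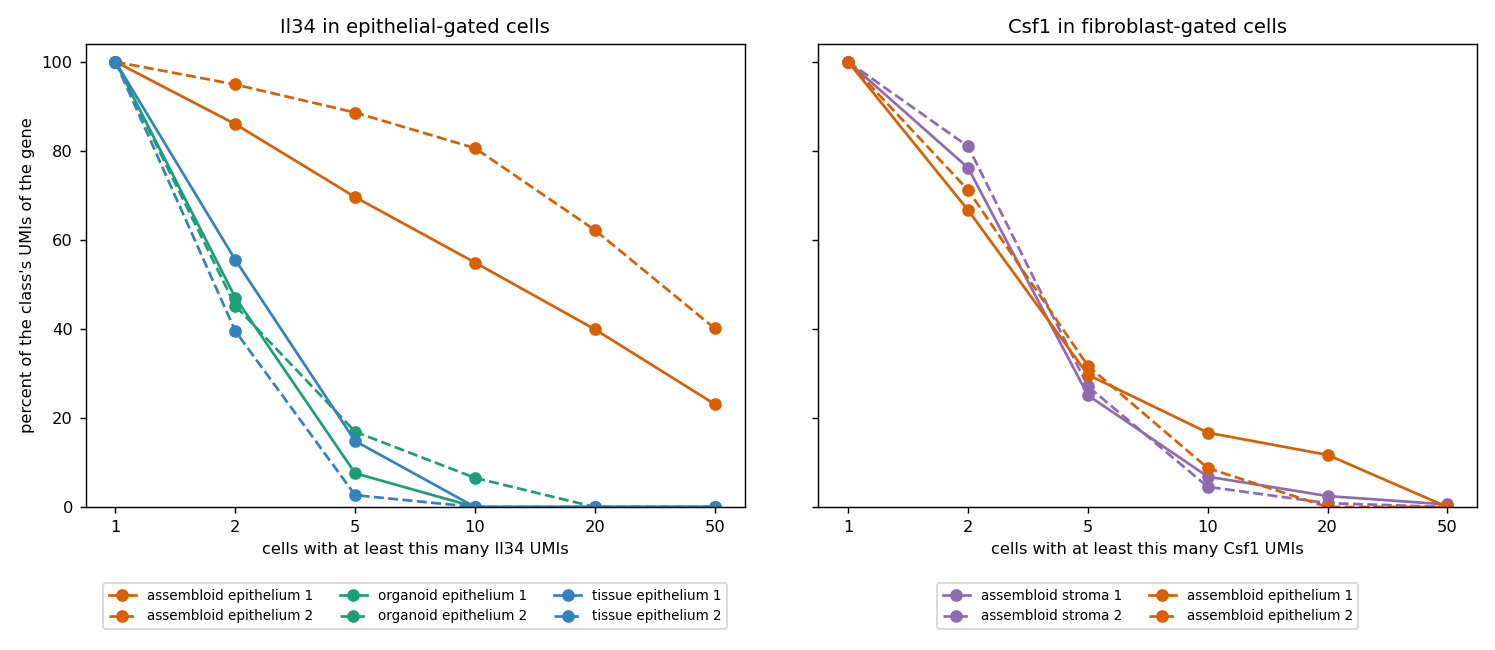
Percent of a class's UMIs of Il34 (left, epithelial-gated cells) and Csf1 (right, fibroblast-gated cells) that lay in cells with at least 1, 2, 5, 10, 20 or 50 UMIs of the gene; lines are libraries, dashed for replicate 2. Cells with at least 10 UMIs hold 54.9% and 80.6% of Il34 in assembloids and 6.82% and 4.53% of Csf1 in stromal fibroblasts.

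The level of Il34 by other genes of the cell is a description, with genes picked after the data had been seen and no test of any difference between groups. Cells with at least 2 UMIs of Krt20, the keratin of mature surface colonocytes, held 51.0 and 40.9 CPM of Il34 in assembloids, against 103 and 82.8 in cells without Krt20. In tissue the order was reversed, with 19.6 and 10.9 CPM in Krt20 cells against 8.91 and 5.38. Cells with at least 2 UMIs of Mki67 held more Il34 in assembloids, 131 and 102 CPM against 68.7 and 55.8. They held less in organoids, 1.82 and 3.23 against 4.07 and 5.23, and in the first tissue library, 5.61 against 12.8. In the second tissue library the intervals overlapped (5.73, interval 3.95 to 8.05, against 7.22, 6.23 to 8.32). These assembloid levels rest largely on the few cells with at least 10 Il34 UMIs. Without those cells, an alternative chosen after seeing the data, assembloid cells with Krt20 still lay lower, at 27.1 and 10.1 CPM against 46.3 and 15.7. The order by Mki67 then turned in the first assembloid library (35.2 against 44.3 CPM) and stayed in the second (16.9 against 11.8). In assembloids and tissue, cells with at least 2 UMIs of a gene used for such a split, here or below, were deeper than cells with none. In organoids this held for Mki67 and Bnip3. A fixed cut of 10 Il34 UMIs falls at a lower level in deeper cells. The part of depth in these orders, with or without the high cells, was not tested in any group. For Muc2, the goblet cell mucin, the direction differed between the libraries of assembloids and of tissue. Cells with at least 2 UMIs of Bnip3, a hypoxia gene, held 65.2 and 34.0 CPM of Il34 in assembloids against 127 and 218 in cells without it, and 28.1 and 10.5 against 67.0 and 27.6 without the cells of at least 10 Il34 UMIs. Organoids had the same order, 1.79 and 2.99 against 2.81 and 5.26, and in tissue the few Bnip3 cells, 25 and 12, gave 18.1 and 15.5 against 10.7 and 7.11, with intervals that overlapped in both libraries.

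**Figure D4:**
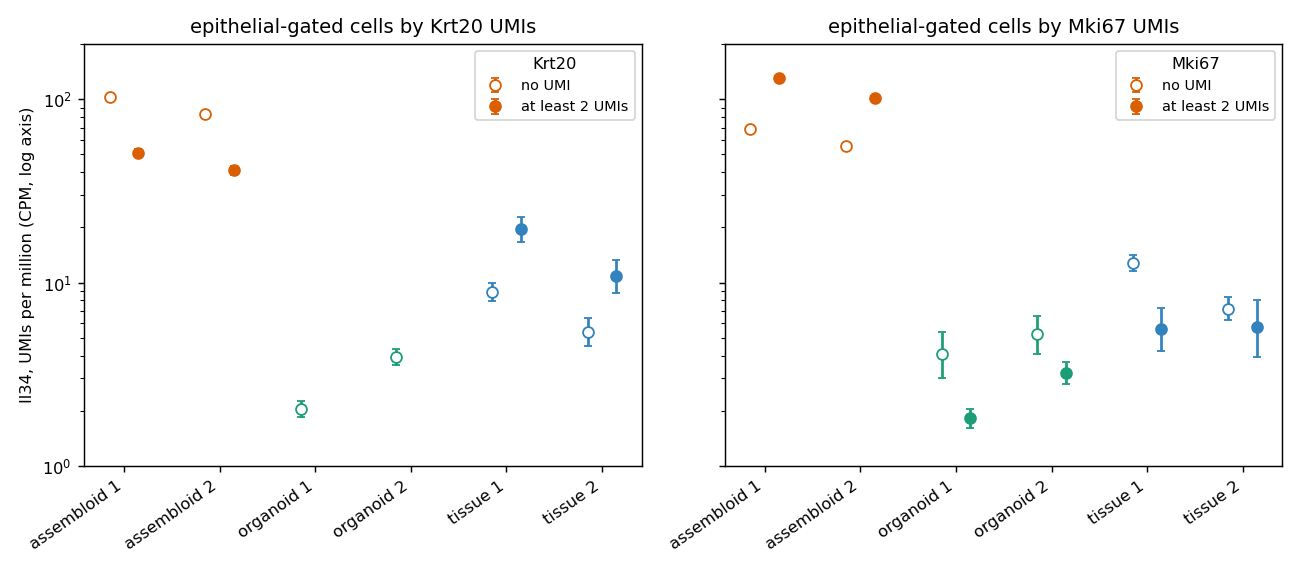
Il34 in epithelial-gated cells (CPM, log axis, exact 95% Poisson interval) with no UMI (open) and at least 2 UMIs (filled) of Krt20 (left) or Mki67 (right), per library; groups under 100 cells are left out. Assembloid cells with Krt20 lie below those without it (51.0 and 40.9 against 103 and 82.8 CPM), and tissue cells above.

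Glia-gated cells of the stroma were a further place of Il34, with 27.0 CPM (interval 16.0 to 42.6) and 45.9 CPM (32.3 to 63.2) from 18 and 37 UMIs, above the 5.30 and 6.39 CPM of fibroblast-gated cells. With 1 glia marker fewer in the gate the second value was 29.2 CPM, from 72 cells in place of 82. Fibroblast-gated cells of the stroma were also split by markers of telocytes and trophocytes, fibroblast types that the study describes. The telocyte-like cells had 19.78 and 16.5 CPM of Il34, from 171 and 228 UMIs. The trophocyte-like cells had 3.613 and 4.172 CPM and the remaining fibroblasts 10.89 and 13.23. The telocyte-like value lay inside the glia interval in the first library and below it in the second. Fibroblast-gated cells in the assembloid epithelium libraries had 10.3 and 10.4 CPM. Macrophage-gated cells there had 31.2 and 3.45 CPM, and in the first of these libraries 29 of the 34 UMIs lay in 1 cell.

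In assembloid epithelium, macrophage-gated cells held 40.6% and 76.4% of the Csf1r UMIs in 0.618% and 2.20% of all UMIs, the macrophage and epithelial cells a further 23.4% and 13.7%, and epithelial-gated cells 28.8% and 6.79%. Macrophage-gated cells held 0.533% and 1.72% of the Csf1 UMIs (4 and 13) and 0.225% and 0.119% of those of Il34. Epithelial-gated cells held 51.9% and 44.0% of the Csf1 there and fibroblast-gated cells 29.6% and 41.0%. Of 453 and 270 cells with a Csf1r UMI, 18 and 17 also had one of Csf1, of which 4 and 7 were macrophage-gated. A Csf1 UMI was thus present in 3.97% and 6.30% of the Csf1r cells and in 1.96% and 5.97% of all cells. A UMI of Il34 was found in 57 and 23 of the Csf1r cells (12.6% and 8.52%, against 13% and 11.4% of all cells), of which 6 and 3 were macrophage-gated. In assembloid stroma, 38 and 18 cells had a Csf1r UMI, and 20 and 12 of these a Csf1 UMI, among cells of which 50.01% and 64.9% carried one.

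UMIs of the macrophage genes were also found in epithelial-gated cells. For the 8 genes from Csf1r to Fcer1g the level in epithelial-gated cells was 0.475% to 0.760% of that in macrophage-gated cells in the first assembloid epithelium library and 0.129% to 0.217% in the second. Per UMI of Lyz2, the first library had 0.303 UMIs of C1qa in epithelial-gated and 0.302 in macrophage-gated cells, 0.243 and 0.217 of C1qb, and 0.193 and 0.192 of C1qc. The adaptors differed more there, with 0.317 and 0.235 of Tyrobp and 0.423 and 0.330 of Fcer1g, while Adgre1 had 0.0230 and 0.0229 and Csf1r 0.0352 and 0.0418. In the second library the ratios were 0.238 and 0.291 for C1qa, 0.220 and 0.223 for C1qb, and 0.133 and 0.160 for C1qc. They were 0.222 and 0.193 for Tyrobp, 0.323 and 0.302 for Fcer1g, 0.0233 and 0.0317 for Adgre1 and 0.0344 and 0.0278 for Csf1r. The ligands lay apart from this range, with Csf1 at 65.0% and 62.3% and Il34 at 288% and 1970%. What brought these UMIs into epithelial-gated barcodes was not tested.

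**Figure D5:**
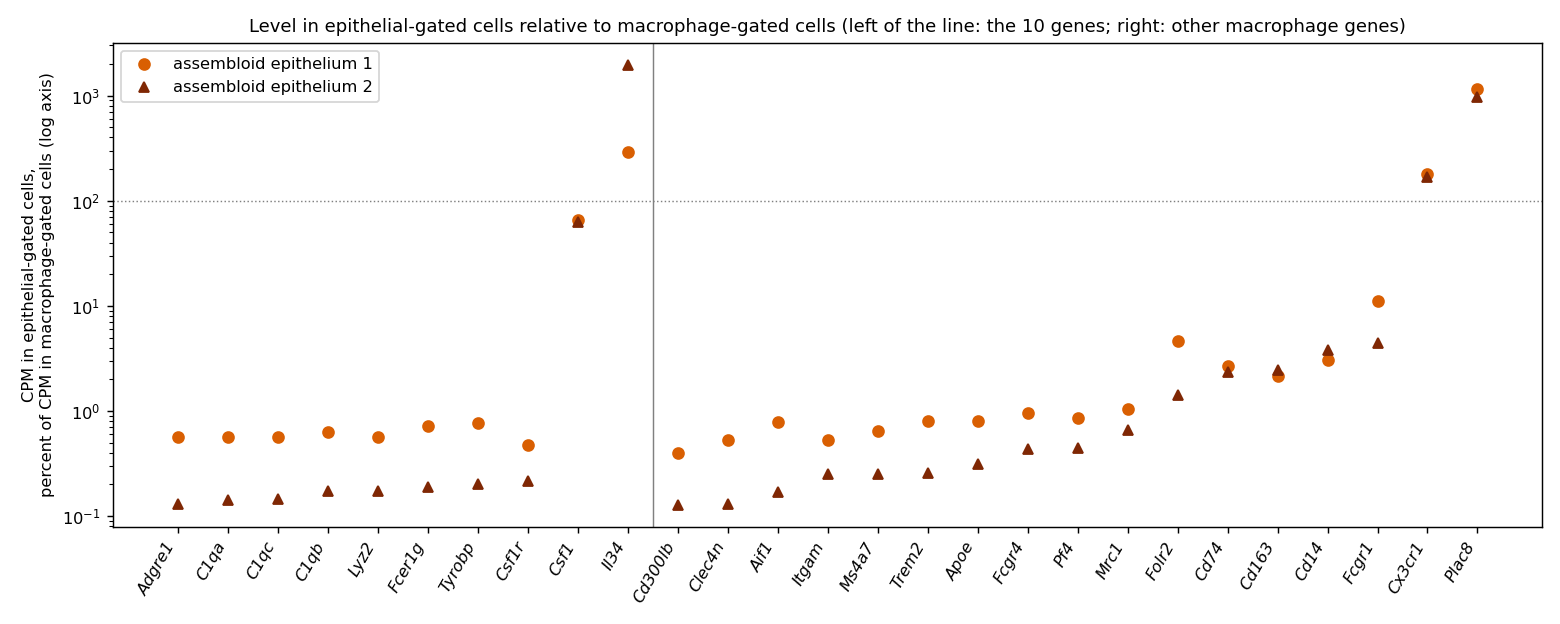
CPM in epithelial-gated cells as percent of CPM in macrophage-gated cells (log axis) for the 10 genes and for most other macrophage genes with more than 3 UMIs in macrophage-gated cells, in the 2 assembloid epithelium libraries. The 8 receptor and macrophage genes lie between 0.129% and 0.760%, while Csf1, Il34, Cx3cr1 and Plac8 lie far above.

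Other macrophage genes, a list of 22, were tested between the epithelial groups on the summed epithelial-gated cells. This list and those below were chosen with earlier results of these data known. Their counts and p-values are therefore a description and no independent test of the lists. All tests here are edgeR's quasi-likelihood test with Benjamini-Hochberg adjustment over 19188 genes, and a gene was called at an adjusted p under 0.05. Between assembloid and tissue epithelium 12 of 17 tested genes rose and 2 fell, with a median log2 difference of 3.35 against 0.03 over all genes, where 49.3% of all genes were called (26.4% higher, 22.9% lower). This background depends on the tissue libraries: without the first or the second, 5152 or 5429 genes in place of 9457 were called, and 11 or 12 of the list. For organoids against tissue 5131 or 5266 in place of 9018 were called, and 5 or 6 of the list. Cx3cr1, the fractalkine receptor of gut macrophages, rose by 5.75 ± 0.34 (SE, edgeR adjusted p = 2.1e-05), from 5.07 and 4.14 CPM in tissue to 221 and 150 in assembloids. Apoe, an apolipoprotein gene, rose by 3.45 ± 0.59 (edgeR adjusted p = 0.00207) and the folate receptor gene Folr2 by 4.58 ± 0.83 (edgeR adjusted p = 0.00268). Aif1, the macrophage protein IBA1, rose by 5.50 ± 0.78 (edgeR adjusted p = 0.000885). Clec4n, with 4.32 and 1.05 CPM, and the Fc receptor gene Fcgr1, with 2.34 and 1.46 CPM, had 0 UMIs in tissue and could pass the filter on low counts only through the other groups. Without the 3 genes at 0 in tissue, 9 of 14 rose and 2 fell, with a median of 2.76. Cd14, a coreceptor for endotoxin, fell by 1.48 ± 0.30 (edgeR adjusted p = 0.00446), and the call of Clec4n was lost with DESeq2.

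Of the 18 genes of the list with a ratio in both libraries, 1 lay within the range of the 8 macrophage genes in both and 12 lay above it in both. The epithelial level of Clec4n was 0.535% and 0.129% of that in macrophage-gated cells, that of Apoe 0.811% and 0.314%, and that of Pf4 0.864% and 0.448%. In epithelial-gated cells the 12 macrophage gate markers summed to 57.1 and 41.3 CPM for assembloids, 16.0 and 22.6 for organoids (2 and 0 markers at 0) and 153 and 138 for tissue (1 and 1 at 0). The part of macrophage RNA in the calls was not tested. Cx3cr1 stood apart: its level in epithelial-gated cells, 221 and 150 CPM, was above the 123 and 88.5 CPM of macrophage-gated cells. Fibroblast-gated cells of these libraries had 579 and 59.0 CPM. These came from 2201 UMIs in 73 of 529 cells and 318 UMIs in 42 of 439 cells, so few cells held them. Whether the reads behind these counts map to Cx3cr1 alone was not tested. Plac8 was at 855 and 1030 CPM in epithelial-gated and 74.3 and 106 in macrophage-gated cells, with 1550 and 2050 in fibroblast-gated cells, and was not called against tissue (720 and 796 CPM, edgeR adjusted p = 0.0644).

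In organoids against tissue, 2 of the 17 rose and 5 fell (median -0.44), a share of 41.2% that is not above the 47.0% of all genes called (24.1% higher and 22.9% lower). Without genes at 0 in a compared group, 1 of 13 rose and 5 fell (median -1.03). Against assembloids 1 rose and 15 fell (median -3.47), with 52.6% of all genes called (24.2% higher and 28.5% lower), and without genes at 0 in a group 1 of 15 rose and 13 fell. Cx3cr1 was at 1.02 and 1.51 CPM in organoids, lower than in assembloids by a log2 difference of -7.41 ± 0.37 (edgeR adjusted p = 2.26e-05). In the macrophage-gated cells themselves, the highest genes of the list were Apoe at 4250 and 3333 CPM, the platelet factor Pf4 at 4188 and 2077, and the lectin gene Clec4n at 808 and 812.

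Of 11 genes of CSF1R signalling and ligand handling, 4 rose and 2 fell in assembloid over tissue epithelium, 54.5% beside 49.3% of all genes, with both tissue libraries in the fit. Sdc1, a surface proteoglycan, rose by 1.63 ± 0.23 (edgeR adjusted p = 0.000886), at 167 and 168 CPM against 61.0 and 81.4. Syk, the kinase downstream of TYROBP and FCER1G, rose by 0.84 ± 0.17 (edgeR adjusted p = 0.00512) and lost its call without either tissue library. Cbl, the ubiquitin ligase that acts on activated CSF1R, fell by 1.14 ± 0.20 (edgeR adjusted p = 0.00256). The protease gene Adam17, which is known to shed CSF1R and membrane-bound CSF1, was at 21.3 and 25 against 28.3 and 27.8 CPM and not called. Ptprz1, Itgb2 and Hcst were called at no more than 2.17 CPM in any assembloid or tissue library and lost the call under several alternatives. In organoids 0 rose and 4 fell against tissue, 36.4% beside 47.0% of all genes, and 0 rose and 6 fell against assembloids, 54.5% beside 52.6%. In macrophage-gated cells the highest genes of the list were Grb2 at 440 and 466 CPM, Syk at 272 and 257, and Adam17 at 192 and 221.

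The partners of C1q in early complement were mostly fibroblast genes here. Serping1, the C1 inhibitor, was at 1050 and 1270 CPM in fibroblast-gated cells of assembloid epithelium and 4.59 and 24.9 in macrophage-gated cells. C3, the central complement component, was at 326 and 448 CPM in the fibroblast-gated and 217 and 199 in the macrophage-gated cells. In epithelial-gated cells 5 of the 8 genes rose and 1 fell in assembloids over tissue, beside 26.4% higher and 22.9% lower among all genes. The 10 fibroblast markers summed to 199 and 40.3 CPM in these cells of assembloids and to 6.49 and 5.34 in those of tissue. The part of fibroblast RNA in the calls was not tested. Serping1 rose by 6.26 ± 0.69 (edgeR adjusted p = 0.000275), at 17.9 and 6.06 CPM, which is 1.71% and 0.476% of the fibroblast level. Cfb, complement factor B, fell by 1.92 ± 0.18 (edgeR adjusted p = 0.000135), from 38.8 and 39.2 CPM to 6.81 and 8.93. Organoids had 0 higher and 4 lower of 8 against tissue, beside 24.1% higher and 22.9% lower among all genes, and 0 higher and 6 lower against assembloids (median -5.96), beside 24.2% higher and 28.5% lower. Without the gene at 0 in organoids these were 3 and 5 lower of 7. Lyz1, the Paneth cell lysozyme and close paralog of Lyz2, was near 0 in assembloid epithelium (0.0736 and 0.0561 CPM), at 1.09 and 2.41 in tissue and at 9.87 and 5.88 in organoids; each of these differences was called, that between organoids and tissue not at a mitochondrial limit of 5%. Whether reads of these close paralogs were told apart was not tested, so the low values of Lyz1 are uncertain.

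Of 21 myeloid growth factors and receptors, 17 were tested, and in assembloid over tissue epithelium 8 rose and 5 fell, with a median of 0.15, beside 26.4% higher and 22.9% lower among all genes. Without Il6, which had 0 UMIs in tissue, 7 rose and 5 fell of 16 and the median was -0.07. Csf2rb, the shared receptor chain for GM-CSF, IL-3 and IL-5, rose by 7.71 ± 0.83 (edgeR adjusted p = 0.000236), at 6.55 and 5.39 CPM against 0 and 0.0813. Like Il6, Csf2rb could pass the filter on low counts only through assembloids, so these values are a description. The count without Il6 still holds Csf2rb and also Flt3, which was too low in tissue to pass the filter there. The chemokine gene Ccl2 rose by 8.40 ± 1.13 (edgeR adjusted p = 0.00068), at 14.3 and 4.10 CPM, with 630 and 613 in macrophage-gated cells and 508 and 423 in fibroblast-gated cells. Il6 had 1.74 and 0.888 CPM in assembloids and could pass the filter only through them. Flt3 had 1.86 and 0.897 CPM against 0 and 0.0542 in tissue, while macrophage-gated and fibroblast-gated cells of assembloid epithelium held 0 UMIs of Flt3. Ccl2, Csf2rb and Csf2ra were the highest genes of the list in macrophage-gated cells. Kit, the receptor of stem cell factor and a marker of crypt base goblet cells, fell by 6.57 ± 0.38 (edgeR adjusted p = 2.09e-05), from 68.3 and 59.1 CPM in tissue to 0.343 and 0.710. Its ligand Kitl fell by 1.33 ± 0.22 (edgeR adjusted p = 0.00191), from 137 and 129 CPM to 31.7 and 49.7. The summed cells differed in make-up. At least 2 Muc2 UMIs lay in 3152 of 4667 and 3482 of 4300 epithelial-gated tissue cells. In assembloids this held for 2552 of 26707 and 1411 of 6832, and in organoids for 64 of 4861 and 101 of 7635. The part of cell make-up in the calls between epithelial groups was not tested.

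Organoids over tissue had 3 higher and 4 lower genes of this list, 41.2% beside 47.0% of all genes, with Kit at 0.917 and 1.86 CPM (-5.35 ± 0.35, edgeR adjusted p = 2.17e-05) and Ccl2 at 12.8 and 7.09 CPM. Organoids over assembloids had 3 higher and 8 lower, 64.7% beside 52.6% of all genes. This count of calls fell when either organoid library was left out. Kitl was higher by 1.16 ± 0.22 (edgeR adjusted p = 0.00325) and Csf2rb lower by a log2 difference of -9.13 ± 0.83 (edgeR adjusted p = 0.000146). Csf2rb could pass the filter on low counts only through assembloids, so its values are a description. Contrasts that share a group share its libraries and are not independent.

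Over 14 sums of at least 100 cells of a class in a library, 11186 genes with a mean of at least 5 CPM were ranked by their correlation with the ligands and the receptor on log2(CPM + 1). The genes most like Csf1 were Il3ra (Pearson r = 0.988), Pcolce, Chl1, Tgfb1i1 and Efemp2 (0.983). The genes most like Csf1r were Trpv2 (0.995), Ptafr, Lst1, Cd274 and Tfec (0.985), and those most like Il34 were Zkscan5 (0.962), A730063M14Rik (0.911), Atl3, Tmem220 and Rsrc2 (0.895). The sums of one library share its depth, and several come from the same cultures. Only the sums of macrophage-gated cells held Csf1r at a high level, so its Pearson correlations rest largely on them. By Spearman's correlation 1 of the 5 genes stayed in the list of Csf1, 3 in that of Il34 and 0 in that of Csf1r.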

How the data were processed

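The 8 libraries were made with the 10x Genomics 3′ kit v3. The authors deposited raw UMI counts per gene and barcode, made with Cell Ranger 6.0.1 (stroma) and 7.1.0 (epithelium) per the file headers. The submitters' processing notes name Cell Ranger 6 and mm10. Whether introns were counted is not given in the sources used here. Cells were kept with 500 genes or more and no more than 10% mitochondrial UMIs, the cutoffs the authors state for the stroma. For the epithelium they state none separately, and the epithelial cells kept here are not the same set as theirs. The first assembloid epithelium library alone kept 29410 cells here, more than the study reports for its assembloid epithelium after filtering.

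The 10 members and the gene lists were chosen with earlier results of these data known. Cells were gated by marker lists without the members. Gate limits were set after the data had been seen: at least 5 of 12 macrophage or 5 of 10 endothelial markers, 4 of 8 for glia and neurons, 4 of 6 for basal squamous cells, 5 of 7 for smooth muscle, and, for epithelium and fibroblasts, at least 5 marker UMIs and 4 times those of the other list. For shares at matched depth, cells were thinned to 2000 UMIs. Split genes for Il34 (Krt20, Mki67, Muc2, Bnip3) were chosen after the data had been seen. No doublet caller was run.

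UMIs were summed per library over epithelial-gated cells. The 6 sums were fitted together with edgeR 4.0.16 in R 4.3.3 (filterByExpr, TMM, quasi-likelihood test, no block), with genes called at a p under 0.05 after Benjamini-Hochberg adjustment. On simulated data, 184 of 195 genes changed 4-fold were recovered for assembloid against tissue, 180 of 197 for organoid against tissue and 188 of 196 for organoid against assembloid, while 0, 7 and 12 unchanged genes were called. The simulated spread was the same for all genes and was not taken from the libraries. Changed genes that failed the filter on low counts were left out. These shares therefore do not give the power in the real data. From each list the text names called genes whose libraries did not overlap, at most the 6 largest differences per contrast, and the 3 highest in macrophage-gated cells; genes named to show levels beside these were chosen after their values were seen. Where a limit is given beside a 0, it is that of 3 UMIs. Alternatives were DESeq2 1.42.0, no filter on low counts, the replicate block, leaving out each library, other limits on cells, and all cells. Promoters are from RefSeq. Some results are not reported here.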

Additional observations from a re-analysis of the deposited data

Results flagged for a closer look

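In epithelial-gated cells, Il34 was lower in cells with at least 2 Krt20 UMIs than in cells with none in both assembloid libraries (log2 ratios -1.01 and -1.02) and higher in both tissue libraries (1.13 and 1.02). It stands here because every library of one group moved against every library of the other, a difference of -2.09 between the group means. With Mki67 in place of Krt20, the assembloid ratios were 0.93 and 0.87, those of organoids -1.16 and -0.70 and those of tissue -1.19 and -0.33, which gave differences of 1.83 between assembloids and organoids and 1.66 between assembloids and tissue. Of the assembloid cells, 282 and 180 with at least 10 Il34 UMIs hold 54.9% and 80.6% of the epithelial Il34. Without them the assembloid ratios were -0.77 and -0.64 for Krt20, and -0.33 and 0.52 for Mki67, so that the assembloid libraries no longer moved one way for Mki67. The cut of 10 Il34 UMIs falls at a lower level in deeper cells, such as those with Krt20 or Mki67 UMIs in assembloids. Tissue cells with Krt20 or Mki67 UMIs and organoid cells with Mki67 UMIs were deeper as well. The differences between the ratios, and the part of depth in them, were not tested.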

How the results depend on the processing

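Of 270 values under alternatives for 45 results, 234 stayed within the limits set for them, 36 moved and none reversed. The Il34 ratios are means of 2 libraries here, which can hide a single library that reversed. Without the cells of at least 10 Il34 UMIs, the mean assembloid log2 ratio of Il34 by Mki67 went from 0.90 to 0.09 and that by Krt20 from -1.02 to -0.71. In the first assembloid library the ratio by Mki67 reversed, from 0.93 to -0.33. The tissue libraries set the number of called genes most. Leaving out 1 library gave 5152 to 10113 called genes for assembloid against tissue (9457 with all), 5131 to 9703 for organoid against tissue (9018) and 7711 to 9780 for organoid against assembloid (10097); the lowest for the first came without tissue replicate 1 (5152) and replicate 2 (5429), and for the second likewise (5131 and 5266). The calls in the list of myeloid growth factors and receptors ranged over 10 to 13, 5 to 7 and 7 to 11 (11 with all; 7 without either organoid library), and those in the list of other macrophage genes over 11 to 16, 5 to 8 and 13 to 17. With all cells in place of the gated ones, the latter list had 11 calls for organoid against tissue in place of 7.

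Macrophage-gated cells ranged from 0.483% to 2.42% between the assembloid epithelium libraries. In the second of these the share was 3.51% at a mitochondrial limit of 5% and 1.52% with no limit, and in the first 0.529% and 0.454%. In assembloid stroma their mean share was 0.0443% (0.0442% to 0.0444%), and 0.0516% at a mitochondrial limit of 5%, 0.0445% with 1000 genes or more and 0.0477% with no mitochondrial limit, an alternative chosen after seeing the data. In tissue it was 0.0658% (0.0464% to 0.0853%), and 0.108%, 0.0965% and 0.0184% under the same 3 settings. Mean Csf1 in fibroblasts of assembloid epithelium was 58.8 CPM at the 5% limit (57.8; 57.3 to 58.4). Mean Il34 in tissue epithelium was 6.26 CPM at the 5% limit and 12.1 with none (7.12 to 11.1 between the libraries). The causes were not tested.

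No pairing by replicate number was seen: deviations of same-numbered libraries correlated at -0.0186, 0.0281 and -0.0184. Such correlations cannot show whether same-numbered libraries share a mouse, culture or run. The fit with the replicate number as a block called 9330, 8865 and 9947 genes, and 13, 7 and 11 of the myeloid list. The few macrophage-gated cells of stroma and tissue, at most 4 a library, limit every value given for them.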

Other observations

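The assembloid epithelial cells with at least 5 Il34 UMIs, 616 and 267 cells against 23103 and 6024 without any, differed in other genes; these were picked after their values were seen and not tested. Dram1, a lysosomal membrane gene, was at 61.9 against 3.61 CPM in the first library and 37.7 against 2.06 in the second. Naaladl2 was at 49.3 against 6.08 and 56.3 against 4.96, and Txndc16 at 55.5 against 11.8 and 49.0 against 6.07. Cx3cr1 was at 402 against 202 CPM and 693 against 120. Mki67 was at 163 against 92.9 and 137 against 75.9. Muc2 was at 119 against 178 and 159 against 440. Apoc2 was among the genes lower in these cells, at 9.52 against 34.3 and 3.41 against 16.3.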
